A study of Arabidopsis thaliana with 6 samples.

Results

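The genes described here were 53 of the 21428 probe sets measured in young Arabidopsis thaliana leaves of 8-day-old plants, each clearly higher in AN3-GR than in wild type. They were chosen from the measured values. A probe set was taken when its lowest AN3-GR array lay above its highest wild type array and when the AN3-GR mean exceeded the wild type mean by 0.7 or more on the log2 scale. In all 64 probe sets met these conditions (0.299% of those measured). A list of 13 loci, AN3 itself among them, was left out by name, and 11 of these 13 had met the conditions. Non-overlapping groups with AN3-GR higher were found for 12.8% of the probe sets measured. Since the comparison of the genotypes chose the genes, their levels and differences are given as a description and no test of them is made.

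Leaves 1 and 2 came from AN3-GR plants on 3 Affymetrix ATH1 arrays and from wild type plants on 3 others, all of the Columbia-0 ecotype. AN3-GR is the coactivator AN3 fused to the glucocorticoid receptor domain, which holds a fused protein inactive until a steroid is supplied. Each genotype was raised on plates in long days (16 h light, 8 h dark) and at 8 days after stratification was moved to 5 µM dexamethasone, a steroid that releases the fusion, for 8 h, so wild type had the steroid too. No AN3-GR plants without the steroid were analysed, so a standing difference between the lines and a response to the activated fusion cannot be told apart, and the sources used here give neither the promoter of the fusion nor its number of independent lines. The replicates are called biological repeats in the labels.

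AN3, also called GIF1, has no DNA-binding domain of its own and acts with growth-regulating factors and with SWI/SNF chromatin remodelling complexes. In young leaves it keeps cells dividing, and leaves without it are narrow because fewer cells are made. Of the 53 genes, the 15 with a name include transcription factors, organ growth genes, organelle proteins and enzymes, and the other 38 have no name in the RefSeq table.

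AN3 itself read 10.56, 10.02 and 10.55 on AN3-GR replicates 1, 2 and 3, against 7.39, 6.98 and 7.61 on wild type replicates 1, 2 and 3 (log2), so the arrays carry the genotype their labels state. Array medians lay between 6.22 and 6.32, with wild type replicate 1 the lowest and the others at 6.30 or more. The upper quartile of wild type replicate 1 was 7.97, against 8.04 to 8.08 on the others. Pearson's r across all probe sets was 0.995 to 0.997 within AN3-GR, 0.993 to 0.995 within wild type and 0.990 to 0.995 between the genotypes. The highest value between the genotypes joined AN3-GR replicate 3 and wild type replicate 3. Of the leaf mesophyll markers the carbonic anhydrase gene CA1 was measured and stood high, at 12.89 for AN3-GR and 13.32 for wild type (mean log2), while 4 of 5 measured root markers had mean levels below 4.06, the lower quartile over the array.

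The differences of the 53 genes ran from 0.70 to 1.80 with a median of 0.78, which is 1.71-fold, while the median over all probe sets was −0.02. Only 6 genes differed by 1 or more, 16 by 0.8 to 1 and 31 by 0.7 to 0.8. The set therefore consists mostly of moderate differences near its own threshold. Few signals were weak, with 1 gene under the lower quartile of mean level over the array. There were 23 genes between that quartile and the median, 20 between the median and the upper quartile and 9 above the upper quartile (8.04). The SD among replicates had a median over these genes of 0.16 for AN3-GR arrays and 0.19 for wild type arrays (n = 3 each), where all probe sets gave 0.11 for AN3-GR and 0.14 for wild type. More cells of a type and more RNA per cell cannot be told apart in such whole-leaf RNA.

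In the fit of the whole table by limma, 31 of the 53 had an adjusted p under 0.05, where 0.56% of all probe sets were called higher. With the replicate number as a block it was 51 of 53, where 3.59% of all probe sets were called higher. Nothing is read from these counts, because the rule used the same contrast. The count fell to between 1 and 6 when any array other than wild type replicate 3 was left out, and it was 49 without wild type replicate 3. Calls over all probe sets moved likewise, from 120 higher to between 5 and 14, and to 468 without wild type replicate 3.

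The RefSeq table gave a gene name for 15 of the 53 and only the locus identifier for 38. All 53 are listed there as protein coding. For those without a name no function is stated here. The named genes are described first, by the role of their products.

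Transcription regulators were 4 of the named genes. PAN (PERIANTHIA, AT1G68640) encodes a bZIP factor of the TGA class known for setting the number of floral organs. Its values were 6.30, 5.69 and 6.55 on the AN3-GR arrays, against 4.71, 4.47 and 5.41 on the wild type arrays. AN3-GR replicate 2 and wild type replicate 3 came within 0.28 of each other. The difference of the means, 1.31 (2.49-fold), was the largest among the named genes, and the SDs were 0.44 in AN3-GR and 0.49 in wild type.

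HB33 (AT1G75240), also listed as ZHD5, is a zinc-finger homeodomain factor. Its values were 9.64, 9.48 and 9.80 in AN3-GR, against 8.75, 8.53 and 8.79 in wild type. The groups were compact and stood 0.70 apart at their nearest points. The difference was 0.95 (1.94-fold), and it stayed between 0.87 and 1.03 with any single array left out.

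AtHB23 (AT1G26960), a homeodomain-leucine zipper factor, read 5.20, 4.76 and 5.16 in AN3-GR, against 4.29, 4.01 and 4.42 in wild type. Replicate 2 was the lowest array of each genotype. The difference was 0.80 (1.74-fold).

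CIL (AT4G25990) is a relative of CIA2, a factor that promotes expression of genes for chloroplast protein import. It read 8.76, 8.45 and 8.38 in AN3-GR, against 7.99, 7.70 and 7.50 in wild type. Here replicate 1 was the highest and replicate 3 the lowest array of each genotype, so that the difference at equal replicate number was 0.77, 0.75 and 0.88 for numbers 1, 2 and 3. Over the means it was 0.80.

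**Figure D1:**
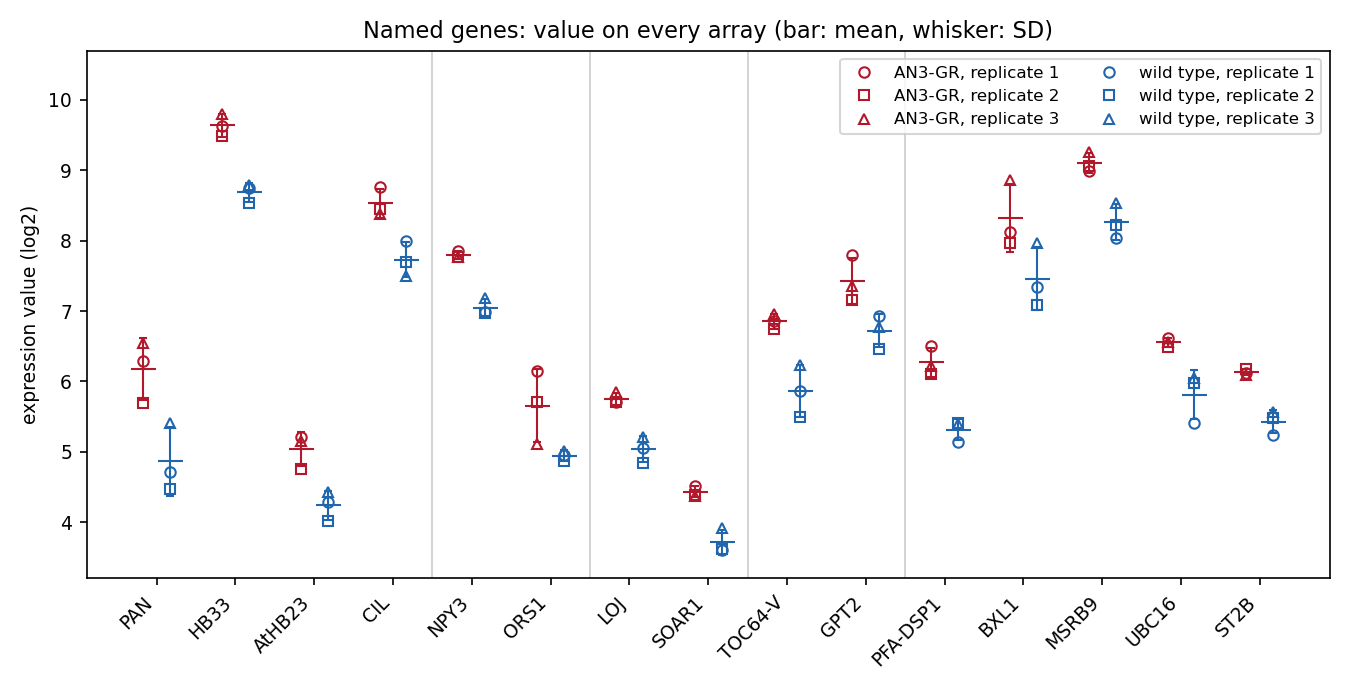
Log2 expression value of the 15 named genes (y axis) on the 3 AN3-GR arrays (left, red) and the 3 wild type arrays (right, blue) of each gene, with the mean as a bar and the SD as a whisker. The groups are compact and well apart for HB33 and NPY3, while the BXL1 and ORS1 groups nearly touch.

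Organ growth genes were NPY3 and ORS1. NPY3 (AT5G67440) belongs to a family related to the phototropism protein NPH3 that acts with auxin in organ formation. It showed little scatter, with 7.86, 7.76 and 7.76 in AN3-GR, against 6.99, 6.97 and 7.19 in wild type. The difference was 0.75 (SD 0.06 in AN3-GR and 0.12 in wild type), and it stayed at 0.71 or more with any single array left out.

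ORS1 (AT2G41230), which the table also names ORGAN SIZE RELATED 1, is related to ARGOS and promotes organ growth when overexpressed. It had the widest spread in AN3-GR of all 53 genes. Its values were 6.15, 5.71 and 5.12 in AN3-GR, against 4.96, 4.86 and 5.01 in wild type. AN3-GR replicate 3 lay only 0.10 above wild type replicate 3. The difference of the means, 0.71, was 0.47 without AN3-GR replicate 1 and 0.98 without AN3-GR replicate 3.

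LOJ and SOAR1 encode pentatricopeptide repeat proteins, a large family of RNA-binding proteins that mostly act in organelles. LOJ (LATERAL ORGAN JUNCTION, AT2G39230) is named for expression where lateral organs join the stem. Its values were 5.70, 5.71 and 5.84 in AN3-GR, against 5.06, 4.84 and 5.21 in wild type, a difference of 0.72. SOAR1 (AT5G11310), a negative regulator of abscisic acid responses, read 4.52, 4.39 and 4.38 in AN3-GR, against 3.61, 3.62 and 3.92 in wild type. The wild type mean of SOAR1, 3.71, was below the lower quartile over the array, and its difference was 0.71.

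Genes of organelle membranes were TOC64-V and GPT2. TOC64-V (AT5G09420), also named OM64, is a mitochondrial outer membrane protein that resembles the chloroplast import receptor Toc64. Its values were 6.86, 6.74 and 6.96 in AN3-GR, against 5.86, 5.49 and 6.24 in wild type. The AN3-GR values were compact and the wild type values spread out (SD 0.11 in AN3-GR and 0.37 in wild type). The difference was 0.99 (1.99-fold), with 0.81 without wild type replicate 2 and 1.18 without wild type replicate 3.

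GPT2 (AT1G61800) exchanges glucose 6-phosphate and phosphate across the plastid envelope and is known as a gene induced by sugars. It read 7.79, 7.15 and 7.36 in AN3-GR, against 6.93, 6.46 and 6.78 in wild type. Replicate 1 was the highest array of each genotype and replicate 2 the lowest. The difference was 0.71, and 0.53 without AN3-GR replicate 1.

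Enzymes were the remaining 5 named genes. PFA-DSP1 (AT1G05000), an atypical dual-specificity phosphatase, had 6.50, 6.10 and 6.21 in AN3-GR, against 5.14, 5.41 and 5.40 in wild type. The groups stood 0.69 apart, and the difference was 0.96 (1.94-fold). MSRB9 (AT4G21850), which reduces oxidised methionine in proteins, read 8.99, 9.06 and 9.26 in AN3-GR, against 8.03, 8.22 and 8.54 in wild type, a difference of 0.84. It lies in a row of MSRB genes, among which MSRB7 and MSRB8 were not analysed here, and whether its probes also detect those copies was not tested.

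BXL1 (AT5G49360), a beta-xylosidase that trims side chains of cell wall polysaccharides, had 8.12, 7.97 and 8.87 in AN3-GR, against 7.34, 7.09 and 7.96 in wild type. The AN3-GR replicate 2 and wild type replicate 3 values were only 0.0059 apart, the smallest separation of the 53 genes. At equal replicate number the differences were 0.78, 0.88 and 0.91, so replicate 3 was high in each genotype. The difference of the means was 0.86.

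UBC16 (AT1G75440), a ubiquitin-conjugating enzyme, read 6.61, 6.48 and 6.56 in AN3-GR, against 5.41, 5.98 and 6.05 in wild type. Wild type replicate 1 stood below the other two, and without it the difference of 0.74 became 0.54. ST2B (AT5G07000), a sulfotransferase, read 6.12, 6.18 and 6.09 in AN3-GR, against 5.24, 5.48 and 5.56 in wild type. It had the tightest AN3-GR group of the named genes (SD 0.04), and its difference of 0.70 put it just inside the threshold.

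Relatives of the named genes are given as a description. A relative that met the rule would have been one of the 53 genes or of the loci left out, so the rule also limits how high the relatives can stand. In 13 families put together from RefSeq gene names, after the differences of their genes had been seen, 67 of 74 relatives were measured. Of these 29 had positive and 38 negative differences, beside 9816 positive and 11612 negative over all probe sets. Their median was −0.04 beside −0.02 over all probe sets. No relative was called by limma in either direction (0.56% of all probe sets were called higher and 0.229% lower). At an unadjusted p under 0.05, 6 relatives were higher and 8 lower, beside 10.1% and 7.86% of all probe sets, so these counts were near the background. With the replicate block 5 of the 67 were called lower and 0 higher, where 3.03% of all probe sets were called lower.

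Among the 12 measured zinc-finger homeodomain relatives of HB33 the differences ran from −0.04 to 0.38, and 10 were positive. The highest was HB28 at 0.38 (SE 0.13; limma adjusted p = 0.180). The 9 TGA relatives of PAN ran from −0.26 to 0.08. Their direction was thus mixed, with 7 of 9 below 0, and none of them passed the test.

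For AtHB23 the 15 class I homeodomain-leucine zipper relatives ran from −0.49 to 0.37, and HB16, the lowest, was called with the replicate block (limma adjusted p = 0.0257) but not without it (0.0552). ATHB13, at 0.36 (SE 0.11), was not called (limma adjusted p = 0.136). CIA2, the relative of CIL, had a difference of 0.16 (SE 0.11; limma adjusted p = 0.50).

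ENP, also known as NPY1 and a founding member of the NPY3 family, had a difference of −0.40 (SE 0.25; limma adjusted p = 0.432, and 0.0388 with the replicate block). NPY4 and NPY5 stood at −0.15 and −0.11. ARGOS, an auxin-induced promoter of organ size, had a difference of 0.43 (SE 0.19; limma adjusted p = 0.271), and its relative ARL one of 0.07 (SE 0.13). None of these passed without the block.

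The organelle and enzyme families were mixed too. TOC64-III, the chloroplast import receptor, stood at 0.33 (SE 0.10) and AMI1, an amidase of the same family, at −0.32 (SE 0.09), with limma adjusted p-values of 0.151 and 0.113. GPT1, the other glucose 6-phosphate translocator, stood at −0.09 (SE 0.14), while the phosphoenolpyruvate translocator PPT2 at −0.67 (SE 0.17) and the triose phosphate translocator APE2 at −0.41 (SE 0.16) were called lower with the replicate block (limma adjusted p = 0.0378 and 0.0340). ST2A, which lies beside ST2B and acts on a jasmonate derivative, stood at −0.01 (SE 0.10). SOT18, a glucosinolate sulfotransferase, stood at −0.63 (SE 0.20) and was called lower with the block (limma adjusted p = 0.0188).

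UBC18 had the highest difference among the relatives, 0.46 (SE 0.15; limma adjusted p = 0.158). The 3 beta-xylosidases related to BXL1 ran from −0.14 to 0.24, the 3 phosphatases related to PFA-DSP1 from −0.14 to 0.14 and the 5 methionine sulfoxide reductases related to MSRB9 from −0.54 to 0.06. Whether probes of a named gene also detect transcripts of these relatives was not tested.

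**Figure D2:**
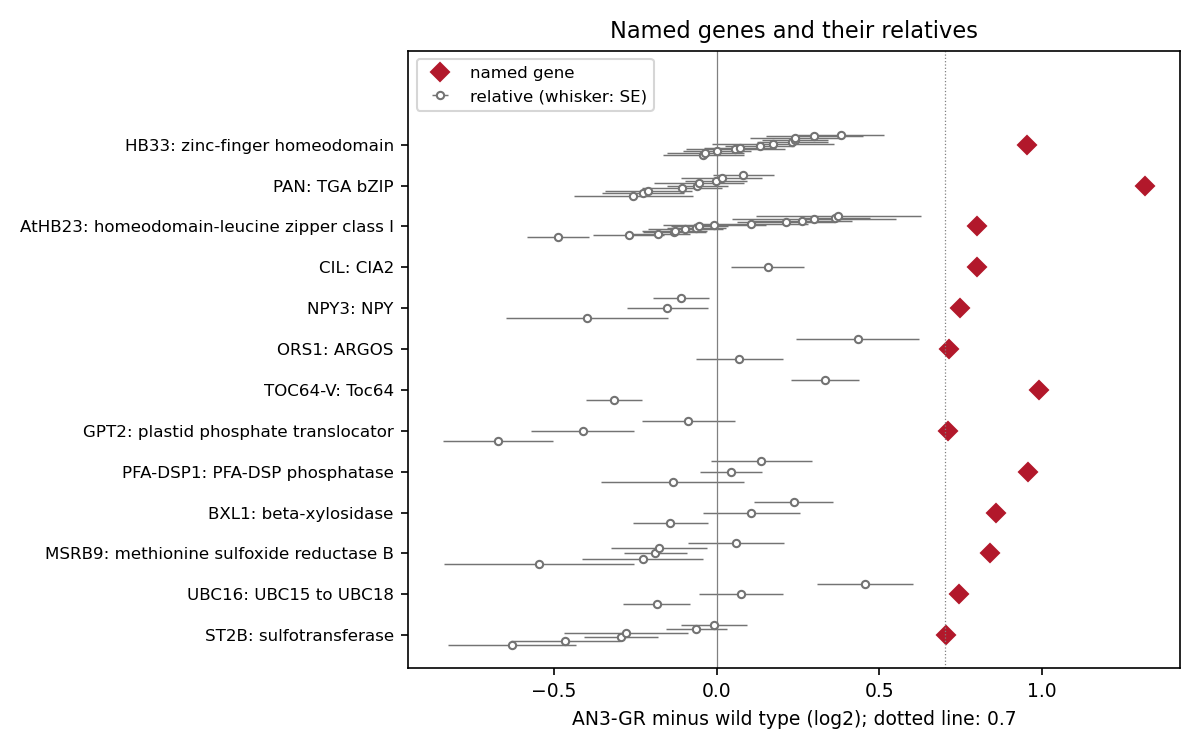
Difference between AN3-GR and wild type (x axis, log2) of each named gene with a listed family (red diamonds) and of its measured relatives (open circles, whisker SE from limma), by family. The relatives run from −0.67 to 0.46 and the diamonds lie on or above the dotted line at 0.7, a separation that the rule itself favours, since a relative past it with groups that do not overlap would have been chosen.

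Of the 38 genes without a name, 8 were among the 12 largest differences, and 2 stood apart from the rest. AT5G22580 had 8.66, 8.84 and 8.81 in AN3-GR, against 6.35, 6.94 and 7.62 in wild type. The AN3-GR arrays lay close together and the wild type arrays did not (SD 0.09 in AN3-GR and 0.63 in wild type). The difference was 1.80 (3.49-fold), with 2.13 without wild type replicate 3 and 1.49 without wild type replicate 1.

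AT3G15357 had 8.03, 7.84 and 8.21 in AN3-GR, against 6.11, 6.42 and 6.59 in wild type. Its groups stood 1.25 apart, the widest separation of the 53 genes, and the difference was 1.65 (3.15-fold). Leaving out any single array kept it between 1.52 and 1.76.

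AT5G56220 read 7.41, 6.85 and 6.89 in AN3-GR, against 5.64, 5.93 and 5.72 in wild type, a difference of 1.29. AT5G59130 read 7.15, 7.26 and 6.66 in AN3-GR, against 6.01, 6.10 and 5.43 in wild type, a difference of 1.18. In the second gene replicate 3 was the lowest array of each genotype, and the differences at equal number were 1.14, 1.16 and 1.23. Among the wild type arrays this was opposite to most of the set, as wild type replicate 3 was the highest for 39 of the 53 genes.

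AT1G62480 had the highest signal of the 53 probe sets, which does not rank it in expression, with 11.33, 11.12 and 11.57 in AN3-GR, against 10.17, 10.20 and 10.56 in wild type. Its difference was 1.03 (2.04-fold). AT1G64490 had 7.29, 6.91 and 7.37 in AN3-GR, against 6.0, 5.81 and 6.80 in wild type, where wild type replicate 3 came within 0.11 of the lowest AN3-GR array. Its difference was 0.99, and 1.29 without that wild type array.

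AT1G12080 read 6.69, 6.32 and 6.64 in AN3-GR, against 5.20, 5.58 and 6.02 in wild type, a difference of 0.95. AT3G12340 read 7.61, 7.49 and 7.39 in AN3-GR, against 6.38, 6.52 and 6.86 in wild type, a difference of 0.91. In each of these genes wild type replicate 1 was the lowest array and wild type replicate 3 the highest of its group.

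A further 8 genes without a name had differences between 0.81 and 0.90, namely AT1G23100, AT5G64710, AT5G08600, AT5G17270, AT5G38320, AT3G27550, AT3G21480 and AT3G26850. AT5G17270 was among the clearest, with 6.66, 6.49 and 6.56 in AN3-GR, against 5.54, 5.83 and 5.78 in wild type. AT5G38320 had the lowest signal of the 53 probe sets, with 4.26, 3.95 and 4.50 in AN3-GR, against 3.25, 3.03 and 3.94 in wild type. Its lowest AN3-GR array lay only 0.0074 above its highest wild type array, and its wild type mean, 3.41, was below the lower quartile over the array.

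The other 22 had differences between 0.70 and 0.79. Those with the higher values were AT5G60030, AT1G71850, AT4G21880, AT5G09840, AT4G25730, AT5G51440, AT5G54910, AT1G32190 and AT4G35070. They were followed by AT2G27340, AT2G37510, AT1G06720, AT1G03760, AT4G04940, AT5G59600, AT4G26600, AT4G16630, AT5G60730, AT3G57060, AT1G20370, AT5G27330 and AT5G15300. AN3-GR means of the 22 lay between 5.23 and 9.17, and wild type means between 4.50 and 8.44.

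Within these 22 the replicates behaved very differently. AT1G71850 had 7.40, 7.37 and 7.33 in AN3-GR, against 6.48, 6.61 and 6.66 in wild type, and AT1G06720 had 8.50, 8.45 and 8.36 in AN3-GR, against 7.69, 7.75 and 7.64 in wild type. Each of these had groups over 0.6 apart. By contrast AT5G60030 had 5.87, 5.54 and 4.87 in AN3-GR, against 4.48, 4.76 and 4.66 in wild type, with AN3-GR replicate 3 close to the wild type arrays. AT2G37510 had 7.51, 7.51 and 7.73 in AN3-GR, against 6.53, 6.62 and 7.36 in wild type, with wild type replicate 3 close to the AN3-GR arrays.

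**Figure D3:**
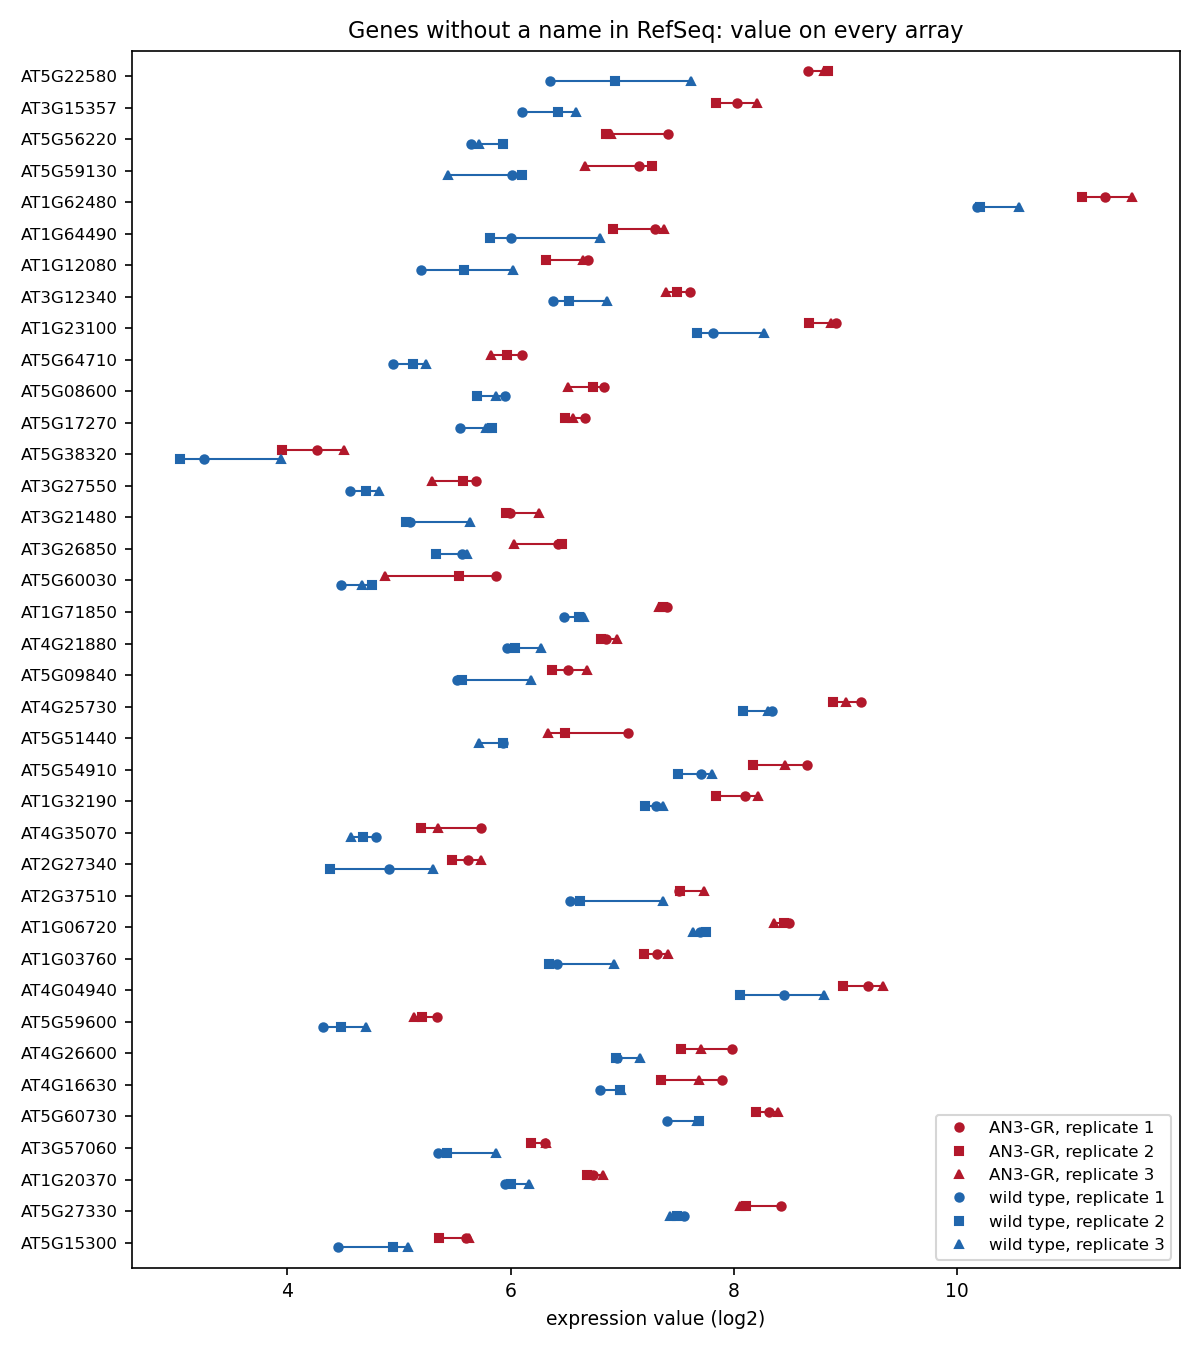
Log2 expression value (x axis) on every array for the 38 genes without a name in RefSeq, in order of their difference, with AN3-GR in red above wild type in blue and a line over the range of each group. AT5G22580 and AT3G15357 have the widest gaps, and for many genes the wild type triangle (replicate 3) is the wild type point nearest to AN3-GR.

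The separation between the groups, taken as the lowest AN3-GR value minus the highest wild type value, had a median of 0.44. It was 0.6 or more in 8 genes, namely AT3G15357, AT5G22580, AT5G56220, HB33, PFA-DSP1, AT1G71850, AT5G17270 and AT1G06720. It was under 0.2 in 9 genes, BXL1, AT5G38320, ORS1, AT1G64490, AT5G60030, AT2G37510, AT4G04940, AT2G27340 and AT5G09840. In 8 of these 9 wild type replicate 3 was the wild type array nearest to AN3-GR. The separation exceeded the larger of the 2 group SDs in 39 of the 53.

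Wild type replicate 3 was the highest wild type array for 39 of the 53 genes (73.6%), against 32.2% of all probe sets. AN3-GR replicate 2 was the lowest AN3-GR array for 33 of the 53 (62.3%), against 35.5% of all probe sets. For 26 genes these held together, and over all probe sets they did so for 17.3%. The 11 loci left out by name that met the conditions had nearly the same shares. These were 72.7% for wild type replicate 3 highest and 63.6% for AN3-GR replicate 2 lowest. AN3, one of these 11, was likewise lowest on replicate 2 among the AN3-GR arrays and highest on replicate 3 among the wild type arrays. The part of these arrays in the differences was measured only by leaving them out, as given here, and was not tested further.

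Set against each other at equal replicate number, AN3-GR minus wild type had a median over the 53 genes of 0.96 for number 1, 0.80 for number 2 and 0.63 for number 3. The same medians over all probe sets were −0.01, −0.03 and 0.02. Number 3 gave the smallest of the differences in 35 of the 53, against 29.6% of all probe sets. Every one of the 53 was positive at each number, as the rule requires, and the lowest single value was 0.10, for ORS1 at number 3. In 41 genes all differences were 0.5 or more.

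**Figure D4:**
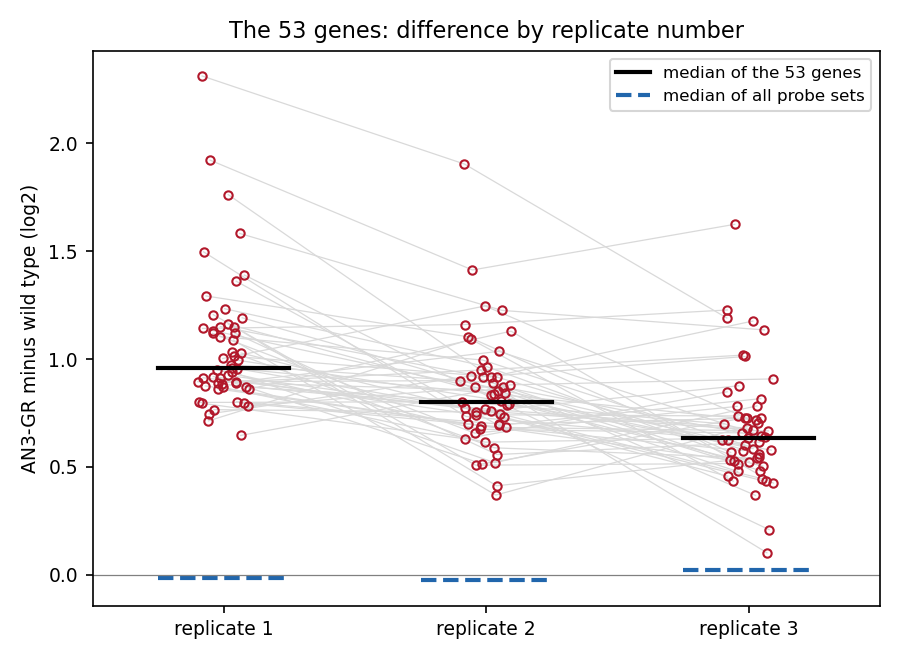
Difference between the AN3-GR and the wild type array of the same replicate number (y axis, log2) for each of the 53 genes (circles joined by grey lines), with the median of the 53 as a black bar and that of all probe sets as a dashed blue bar. The black bars stand at 0.96, 0.80 and 0.63 for numbers 1, 2 and 3, and the dashed bars lie near 0.

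With any single array left out, 24 of the 53 kept a difference of 0.7 or more. All of the 12 largest were among these, as were MSRB9 and NPY3 of the named genes. The rest fell under 0.7 without at least 1 array, as most differences lay close to that threshold. Without wild type replicate 3 the rule took 125 probe sets, 49 of the 53 among them. Without AN3-GR replicate 2 it took 98, with 51 of the 53. The rule asks that no arrays overlap, so leaving an array out loosens that condition by itself.

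The edge of the set was not a natural break. Just inside were ORS1 (0.71), GPT2 (0.71), AT5G27330 (0.71), ST2B (0.70) and AT5G15300 (0.70). Just outside, with groups that did not overlap, were G3Pp1, a member of the glycerol-3-phosphate permease family (0.699), emb1796 (0.699), AT2G41990 (0.695), AT5G14580 (0.694) and TOZ (0.685). A further 5 probe sets reached 0.7 but had overlapping groups. These were the auxin-conjugating enzyme gene GH3.17 (0.78), AT4G22490 (0.74), SRG3 (0.72), AT2G44510 (0.72) and the auxin synthesis gene YUC4 (0.70).

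Positions along the genome were read from the order of genes in RefSeq. Chromosome 5 held 20 of the 53 genes (37.7%), against 22.9% of all probe sets, and chromosome 2 held 4 (7.55%), against 16.3%. The counts were 15 on chromosome 1, 6 on chromosome 3 and 8 on chromosome 4. No gene of the set had another as its nearest measured neighbour. Over the 211 measured genes that flank the set, 2 on each side and none of them a gene of the set, the median difference was −0.02, the same as over all probe sets to 2 decimals.

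Of those neighbours 2 were called higher by limma and 0 lower, beside 0.56% and 0.229% of all probe sets. They were AT2G27360 near AT2G27340, at 0.61 (SE 0.10; limma adjusted p = 0.0360), and NRPC1 beside AT5G60030, at 0.53 (SE 0.10; limma adjusted p = 0.0480). NRPC1 encodes the largest subunit of RNA polymerase III. With the replicate block 9 neighbours were called higher and 7 lower, beside 3.59% and 3.03% of all probe sets. YUC4, the gene next to SOAR1 among those measured, had a difference of 0.70 (SE 0.32) and was called with the block (limma adjusted p = 0.0223) but not without it (0.295).

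Lists of genes with known roles were set beside the 53 to describe these arrays. The 38 genes without a name were not sorted by role, so genes of the same kinds can be among them. Of all 21428 probe sets 9816 had positive differences. Of 19 genes of ribosome assembly in the nucleolus 18 were measured, all with positive differences and a median of 0.48. At an unadjusted p under 0.05 in limma all 18 were higher, beside 10.1% of all probe sets. Of these 5 were called higher and 0 lower, namely SWA1 at 0.78, TOZ at 0.68, EBP2 at 0.67, CBF5 at 0.63 and BOP1 at 0.59 (limma adjusted p from 0.0216 to 0.0451), beside 0.56% of all probe sets called higher. SWA1, TOZ and EBP2 are 3 of the 13 loci left out by name, and SWA1 alone of this list met the rule. The list was chosen with earlier results of these data known, so its counts are a description. With the replicate block 17 of the 18 were called higher, beside 3.59% of all probe sets. Over all the lists of this kind together, cell division genes and markers included, the 5 calls became 0 when any array other than wild type replicate 3 was left out, and 11 without wild type replicate 3.

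All 10 measured cell division genes of 12 listed had positive differences, from 0.07 to 0.46 with a median of 0.27, and 0 were called by limma in either direction. At an unadjusted p under 0.05, 4 were higher and 0 lower, beside 10.1% and 7.86% of all probe sets. With the block CDKB2;1 (0.45), HINKEL (0.34) and MCM2 (0.46) were called higher, 3 in all, beside 3.59% of all probe sets.

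Markers of the cell types a dissected young leaf could hold were read on the same arrays. Of 31 markers 25 were measured, 5 positive and 20 negative, with a median of −0.06, and limma called 0 in either direction (1 higher and 1 lower at an unadjusted p under 0.05, beside 10.1% and 7.86% of all probe sets). With the block 1 was called lower, beside 3.03% of all probe sets, namely CA1 at −0.43 (SE 0.11; limma adjusted p = 0.0412). Summed over the 5 measured meristem and boundary markers, the log2 level was 5.99 to 6.13 in AN3-GR and 5.95 to 6.20 in wild type. It was 10.55 to 10.72 in AN3-GR and 10.65 to 10.71 in wild type over the 6 stomatal lineage markers. For the 4 measured trichome markers it was 7.92 to 8.05 in AN3-GR and 7.50 to 8.04 in wild type. Over the 5 root markers it was 6.71 to 6.87 in AN3-GR and 6.67 to 7.03 in wild type, and over the 4 vascular markers 8.67 to 8.89 in AN3-GR and 8.76 to 8.85 in wild type. Of those 5 meristem and boundary markers WUS, KNAT1 and CUC2 had mean levels below the lower quartile over the array, 4.06. STM, at 4.16 in AN3-GR and 4.20 in wild type, and CLV3, at 4.09 in AN3-GR and 4.15 in wild type, lay just above it. The part of cell mixture in the differences of the 53 genes was not tested.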

How the data were processed

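The arrays were Affymetrix ATH1, 3 of AN3-GR and 3 of wild type. The authors deposited 1 log2 expression value per probe set and array, and RMA and limma are named, without versions, per the submitters' processing notes. RMA takes out any shift that all genes share and shrinks differences of weakly hybridising genes. The identifier of each probe set is an Arabidopsis locus. Names and gene order came from the RefSeq table of TAIR10.1, which matched 21231 loci and not 197. No gene of the set shared identical values with another probe set.

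The deposited log2 values were fitted, unfiltered, with limma 3.58.1 in R 4.3.3 (lmFit, eBayes) on all 6 arrays, two-sided, with Benjamini-Hochberg adjustment over 21428 probe sets and a threshold of 0.05. The fit was tested on simulated data. The p-values set the difference between the genotypes against the spread among these arrays, whose number limits the precision.

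The genes, lists and tests were chosen with earlier results of these data known. Every gene of the set is named, and values on every array are given for the 12 largest differences and at least 2 genes of each function group. Beyond that rule, values of all named genes and a few others were added after they had been seen. Neighbours and list genes are named where limma called them in the main fit. Some that it did not call are named too, YUC4 and several list genes among them. Of the neighbours called only with the block, YUC4 alone is named. A planned choice of relatives by protein sequence could not be run, so families were put together from RefSeq names after their differences had been seen, and the relatives named were chosen from their values. The function groups were likewise made after the values had been seen. Both are a description.

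Arrays of equal replicate number deviated together (r = 0.161, 0.416 and 0.494 for 1, 2 and 3, all over the bound of 0.1). The same values for unequal numbers are not given here. What the number marks is not stated in the labels, so the main fit had no block. The fit with the number as a block stands beside results it changes. Alternatives were a further quantile normalization, median centring, leaving out the weakest 25% or 50% of probe sets, a trended robust prior, array weights, thresholds of 0.6 and 0.8 on the difference, and leaving out arrays.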

Additional observations from a re-analysis of the deposited data

How the results depend on the processing

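Over all probe sets, 120 were called higher and 49 lower in AN3-GR, so 71.0% of calls were higher, and the count depended on the setting. Median centring gave 69 higher (70 lower, 49.6% higher) and moved the median difference of all probe sets to −0.05 from −0.02. Quantile normalization gave 140 higher and 101 lower (58.1% higher). Without the weakest 25% there were 74 lower, and without the weakest 50% there were 392 higher and 172 lower. The trended robust prior gave 380 higher and 178 lower, array weights 730 and 402, and the replicate block 770 and 650. Leaving out 1 array gave 5 to 468 higher and 4 to 311 lower, with the highest counts without wild type replicate 3. Without both arrays of replicate 3 there were 48 higher and 26 lower.

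Of the 53 genes 31 were called, 50 with array weights, 51 with the replicate block and 1 to 49 with 1 array left out. The rule itself took 53 genes. It took 29 without the weakest 50% of probe sets, 135 at a threshold of 0.6, 22 at 0.8, 113 without both replicate 3 arrays (all 53 among them) and 47 to 125 with 1 array left out. Leaving arrays out by itself loosens the condition of the rule that the groups do not overlap. Quantile normalization left 45 of the 53 and median centring 37. The median difference, 0.78, stayed between 0.74 and 0.88 under the settings run. All 664 recomputed differences of single genes stayed positive and within the larger group SD. Much of this was fixed beforehand, so nothing is read from it. The rule keeps each difference positive with any array left out, and leaving out a single array cannot move a group mean by its SD. Leaving out weak probe sets does not change the difference of a gene that is kept.

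Calls among the genomic neighbours were 2, with 1 under quantile normalization or median centring, 6 without the weakest 50% or with the trended prior, 12 with weights, 16 with the block and 0 to 7 with 1 array left out. Among relatives they were 0, with 1 under quantile normalization, without the weakest 25% or 50% and with the trended prior, 2 with weights, 5 with the block and 0 to 2 with 1 array left out. In the other lists they were 5, with 3 under centring, 14 without the weakest 50%, 16 with the trended prior, 17 with weights, 21 with the block and 0 to 11 with 1 array left out. The cause of these changes was not tested. The replicate 3 and relatives settings were added after seeing the data. Promoter motifs and relatives by protein sequence were not run. With 3 arrays a group, weak signals and probes shared by similar genes limit what can be told.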
